A study of Homo sapiens with 4 samples.

Results

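DHRS2 and 8 genes of the retinoid pathway (DHRS3, CRABP1, CRABP2, RARB, RARRES1, RARRES2, ALDH1A2 and ALDH1A3) were followed through the arrays of MG and non-MG cells. The 9 genes were picked from measured values, because DHRS2 had the largest named fall in the MG cells and because CRABP1 was lower in the MG cells and raised by 5-azacytidine. Their 12 probes were found among 50594 by the RefSeq accession that the array design gives. Of these 12 probes, 4 were well above background on all 4 arrays (1 each for DHRS2, DHRS3, CRABP2 and ALDH1A3), 2 probes of CRABP1 were so on some arrays, and 6 were so on none. At this limit, the member just inside was DHRS2, whose lowest intensity was 622, and the member just outside was CRABP1, for which the probe kept by the filter on low values had an intensity of 11.7 and no such call in the vehicle-treated MG cells.

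HCT116 is a line of human colorectal carcinoma cells. The study separated it by repeated transwell migration into MG cells, which crossed the membrane, and non-MG cells, which stayed on its upper side. Both are enriched populations of a single line, so the comparison covers that line alone. Each cell type was given vehicle (labelled control) or 5-azacytidine at 5 µM for 48 h, which makes the 4 conditions vehicle-treated non-MG cells, drug-treated non-MG cells, vehicle-treated MG cells and drug-treated MG cells. 5-Azacytidine is a nucleoside analogue that is built into nucleic acids and traps DNA methyltransferases, so that DNA methylation is lost as cells divide. The question that these arrays address for the 9 genes is how their mRNA differed between the cell types and between treated and untreated cells.

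Vitamin A enters a cell as retinol, is oxidised to retinal by retinol dehydrogenases and to retinoic acid by the ALDH1A enzymes, and is reduced back to retinol by enzymes such as DHRS3. Retinoic acid is bound in the cytoplasm by CRABP1 and CRABP2, acts in the nucleus through RAR and RXR receptors on paired DNA elements, and is cleared by CYP26 enzymes. Several genes of the pathway, RARB and CYP26A1 among them, are themselves targets of retinoic acid, and RARB is a well-known methylated gene of epithelial tumours. DHRS2, also known as Hep27, is a short-chain dehydrogenase/reductase of the same family as DHRS3 that reduces dicarbonyl compounds.

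RNA of each condition was hybridized to 1 single-colour array, so there were no replicates and no test between conditions was made. Between 42.3% and 43.3% of the probes were well above background on each array, no spot was saturated, and the 75th percentile of intensity was between 75.2 and 98.7. Levels are given as intensity, in arbitrary units, and as log2 intensity minus the 75th percentile of the array, on which a value of 0 is that percentile. A difference of 2 such levels is a log2 ratio. The spot error beside it comes from probes spotted 10 times on each array, so it covers spotting and scanning and not differences between cultures. A gene was counted as changed where its ratio passed 1.5-fold, 0.585 on the log2 scale. All arrays lay on 1 slide, with the non-MG cells in row 1 and the MG cells in row 2, vehicle in column 3 and 5-azacytidine in column 4, so that the effects of slide position and those of cell type or treatment cannot be told apart.

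The 250 bases before the transcription start are shown for DHRS2 and CRABP1, the genes for which the group was picked, because they differ in the sites that DNA methyltransferases act on. Sequences and coordinates are those of RefSeq for GRCh38.p14. CpG sites are in capitals in the CRABP1 window, and the DHRS2 window holds none.
DHRS2 (chr14:23629865-23630114, + strand): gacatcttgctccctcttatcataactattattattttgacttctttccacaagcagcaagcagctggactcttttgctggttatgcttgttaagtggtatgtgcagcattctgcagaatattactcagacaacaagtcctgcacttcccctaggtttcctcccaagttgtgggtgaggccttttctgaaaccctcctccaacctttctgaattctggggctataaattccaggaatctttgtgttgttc
CRABP1 (chr15:78340103-78340352, + strand): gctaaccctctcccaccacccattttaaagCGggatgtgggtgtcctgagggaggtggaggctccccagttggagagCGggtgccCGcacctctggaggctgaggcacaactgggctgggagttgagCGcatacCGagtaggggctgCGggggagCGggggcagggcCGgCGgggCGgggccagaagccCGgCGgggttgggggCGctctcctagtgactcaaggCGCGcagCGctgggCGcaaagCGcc
The CRABP1 window held 18 CpG sites. Of 35116 such windows of all genes, 6.06% held no CpG site, the median was 11, and 65.4% held 18 or fewer. Among the other members, ALDH1A3 had 38 CpG sites before its start, RARRES1 had 23, and CRABP2 and RARRES2 had 18 each. Genes with several annotated starts varied between them, from 3 to 26 for DHRS3 and from 1 to 33 for ALDH1A2. Methylation itself was not analysed here, so these windows describe sequence alone.

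The windows of RARB and CYP26A1 are shown because they carry the paired element through which retinoic acid receptors act. This is the DR5 element, a direct repeat of the 6-base receptor site with 5 bases between the copies. It was searched on both strands with the common variants of the site allowed, and is in capitals below.
RARB (chr3:25428013-25428262, + strand): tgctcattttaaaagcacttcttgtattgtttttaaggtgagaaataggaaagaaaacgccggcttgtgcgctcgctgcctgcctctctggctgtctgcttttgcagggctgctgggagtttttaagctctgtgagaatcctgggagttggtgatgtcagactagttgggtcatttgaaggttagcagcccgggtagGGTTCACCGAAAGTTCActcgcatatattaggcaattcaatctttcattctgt
CYP26A1 (chr10:93073643-93073892, + strand): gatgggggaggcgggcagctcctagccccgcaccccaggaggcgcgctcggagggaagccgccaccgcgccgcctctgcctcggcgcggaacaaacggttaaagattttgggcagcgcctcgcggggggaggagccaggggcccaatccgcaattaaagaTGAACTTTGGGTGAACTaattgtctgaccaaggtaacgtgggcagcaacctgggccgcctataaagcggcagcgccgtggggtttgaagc
The RARB site, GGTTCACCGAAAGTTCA, lay on the strand of the gene and ended 37 bases before the start. The CYP26A1 site, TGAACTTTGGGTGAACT as read on the gene's strand, ran on the opposite strand and ended 74 bases before the start. RARB was the only member with a match, at 1 of its 4 annotated starts. Matches were found in 26 of the 35116 windows (0.074%), which belonged to 24 genes. The DR1 element, with 1 base between the copies, was found in 0.0968% of windows and the DR2 element, with 2 bases, in 0.0313%, and no member had either. A match of letters is no measure of binding.

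DHRS2 was far lower in the MG cells with and without 5-azacytidine. The intensity of its probe was 6067 in the vehicle-treated non-MG cells, 6563 in the drug-treated non-MG cells, 622 in the vehicle-treated MG cells and 1212 in the drug-treated MG cells. Both MG arrays thus lay below both non-MG arrays, and the array of vehicle-treated MG cells was the lowest. In bulk RNA, fewer cells with the transcript and less of it in each cell cannot be told apart. With vehicle, the log2 ratio of the MG to the non-MG cells was -3.47 (11.1-fold lower, spot error 0.08). This is the value for which DHRS2 was picked, and it is given as a description. It was the second lowest ratio of the 15708 genes that all 4 arrays measured well above background.

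The cells with 5-azacytidine were measured on the other pair of arrays. The choice of DHRS2 was made with results of all arrays known, so these values too are a description. With 5-azacytidine, DHRS2 was 6.95-fold lower in the MG cells, with a log2 ratio of -2.80 (spot error 0.07) that was the third lowest of the 15708 genes. Compared with vehicle, DHRS2 was 1.99-fold higher with 5-azacytidine in the MG cells (log2 ratio 0.996, spot error 0.08) and 1.25-fold higher in the non-MG cells (0.32, spot error 0.07). The former ratio was at or above that of 99.1% of the genes, and the latter at or above that of 93.0%. The responses differed by 0.67 on the log2 scale (spot error 0.10), which could not be tested with 1 array per condition. The response in MG cells and the picked ratio share the array of vehicle-treated MG cells, so a low reading on it would enter both.

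**Figure D1:**
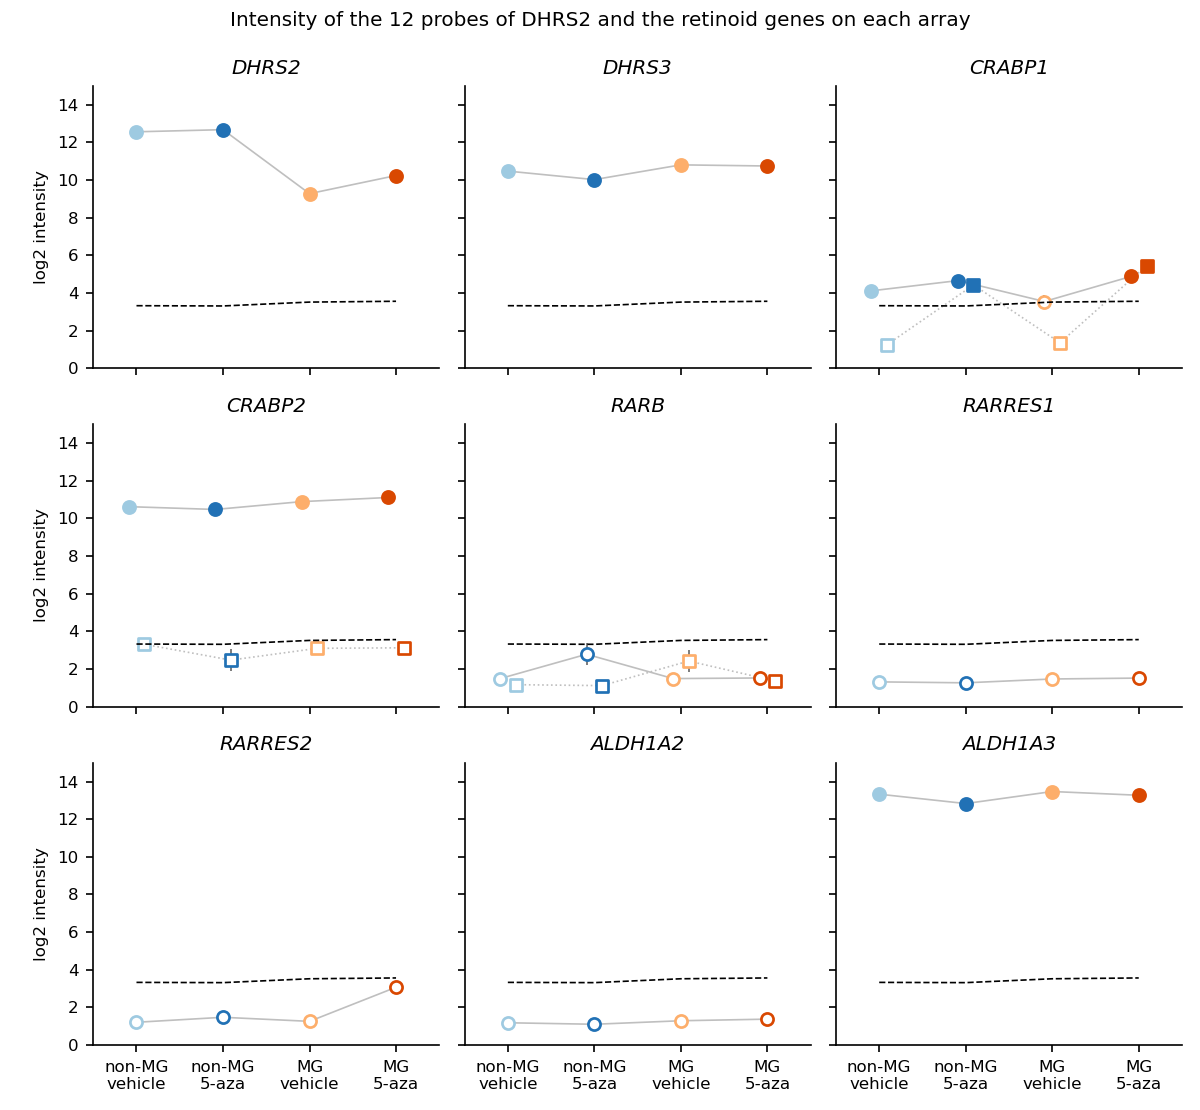
Log2 intensity of each of the 12 probes of the 9 genes (panels) on the 4 arrays (horizontal axis). Circles and squares are different probes of a gene, filled symbols are well above background and open symbols are not, bars are the spot error, and the dashed line is the lowest intensity of any probe well above background on that array. DHRS2 lies at 622 and 1212 in the MG cells and at 6067 and 6563 in the non-MG cells, whereas DHRS3 lies between 1043 and 1796, CRABP2 between 1426 and 2216 and ALDH1A3 between 7272 and 11330 on all arrays.

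The low level in the MG cells was not shared by the genes around DHRS2 on chromosome 14. Of the 5 protein-coding genes on each side in the RefSeq order, 8 were well above background on all arrays. With vehicle, their log2 ratios of the MG to the non-MG cells ran from -0.46 (AP1G2) to 0.32 (NRL), none past 1.5-fold. With 5-azacytidine they ran from -0.93 (ZFHX2) to 0.44 (THTPA), and ZFHX2 alone passed 1.5-fold. The closest relatives of DHRS2 lie beside it. DHRS4, a carbonyl and retinal reductase, had ratios of -0.20 with vehicle and -0.06 with 5-azacytidine, and its near-copy DHRS4L2 had ratios of 0.04 and 0.07. The 3 DHRS4 probes did not move alike, since 1 of them had ratios of -0.65 and -0.68 and the other probes lay between -0.04 and 0.28. Probes of DHRS4 and DHRS4L2 may cross-hybridize, so their values are uncertain.

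**Figure D2:**
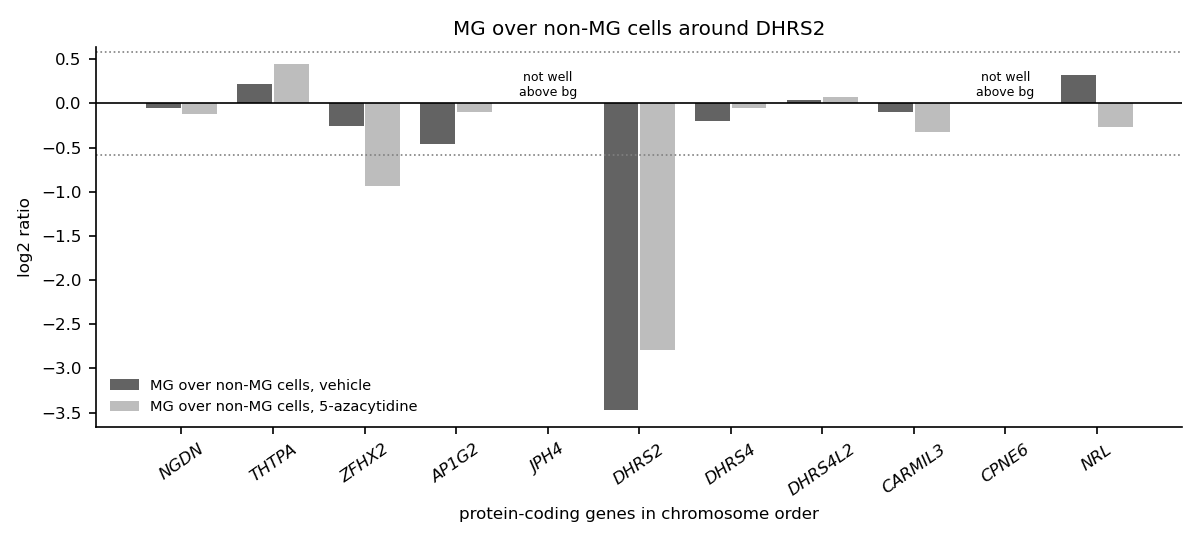
Log2 ratio of the MG to the non-MG cells for DHRS2 and the 5 protein-coding genes on each side of it, in chromosome order, with vehicle (dark bars) and with 5-azacytidine (light bars). Dotted lines mark 1.5-fold, and JPH4 and CPNE6 were not well above background on all arrays. The bars of DHRS2 reach -3.47 and -2.80, and those of its neighbours stay between -0.93 and 0.44.

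The genes whose pattern was most like that of DHRS2 were found by centring each gene on its mean over the 4 arrays and taking the root mean square difference from DHRS2, among 15017 genes. ANXA10, an annexin, was the closest with a difference of 0.44 on the log2 scale. It was followed by LINC00659 (0.69), ARRDC4 (0.70), ANKRD37 (0.71) and a long non-coding transcript without a symbol (0.76). The likeness lies in the contrast between cell types. For ANXA10 the log2 ratio of the MG to the non-MG cells was -3.01 with vehicle and -2.46 with 5-azacytidine, but its response to 5-azacytidine was 0.16 in the MG cells and -0.40 in the non-MG cells, compared with 0.996 and 0.32 for DHRS2.

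The other enzymes measured on all arrays, DHRS3 and ALDH1A3, stayed within 1.5-fold in every comparison. DHRS3, which reduces retinal to retinol, had intensities of 1427 and 1043 in the vehicle-treated non-MG cells and with 5-azacytidine, and of 1796 and 1722 in the MG cells. After scaling, the MG arrays were the highest (4.19 with vehicle and 4.16 with 5-azacytidine), apart by less than the spot error, and the drug-treated non-MG cells were the lowest (3.80). Its log2 ratio of the MG to the non-MG cells was 0.15 with vehicle and 0.36 with 5-azacytidine, and 5-azacytidine over vehicle was -0.03 in the MG cells and -0.24 in the non-MG cells (spot error 0.07 for each). Centring the arrays on their median took the ratio with 5-azacytidine to 0.62, past 1.5-fold.

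ALDH1A3, which oxidises retinal to retinoic acid, had intensities of 10270, 7272, 11330 and 9869 in the vehicle-treated non-MG cells, the drug-treated non-MG cells, the vehicle-treated MG cells and the drug-treated MG cells. Scaled levels ran from 6.60 to 6.88, and the arrays with vehicle were apart by less than the spot error. The cell types differed by -0.04 on the log2 scale with vehicle, a value whose sign turned with the scaling (0.16 with median centring, 0.01 with normexp), and by 0.08 with 5-azacytidine. Treated over untreated was -0.17 in the MG cells and -0.29 in the non-MG cells. The other retinal dehydrogenase of the group, ALDH1A2, was well above background on no array, with intensities from 2.15 to 2.59. No ratio is given for it.

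Of the retinoic acid carriers, CRABP1 was close to the background and CRABP2 was not. The CRABP1 probe that passed the filter on low values, called the retained probe, had intensities of 17.4 in the vehicle-treated non-MG cells, 25.3 in the drug-treated non-MG cells, 11.7 in the vehicle-treated MG cells and 29.5 in the drug-treated MG cells, and the value of 11.7 was not well above background. The other probe was well above background with 5-azacytidine alone, at 21.6 and 43.9 in the non-MG and MG cells, compared with 2.39 and 2.56 with vehicle. Both probes were thus higher on both treated arrays than on both untreated ones.

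For a probe not well above background on an array, its level was compared with the detection limit of that array (its lowest level well above background). Where the probe lay below the limit, the fold is written as at least the level on the brighter array over that limit. Where it lay above the limit, the fold is the ratio to its own level and is no bound. On the array of vehicle-treated MG cells the retained CRABP1 probe lay just above the limit (scaled level -3.074, limit -3.105). By this probe, CRABP1 was 1.68-fold lower in the vehicle-treated MG cells and 2.57-fold higher with 5-azacytidine than with vehicle in the MG cells. Neither fold is a bound. CRABP1 was picked for being lower in the MG cells and raised by the drug, and these values share the array of vehicle-treated MG cells. In the non-MG cells, CRABP1 was 1.69-fold higher with 5-azacytidine (log2 ratio 0.75, spot error 0.28). The other probe was at least 3.92-fold higher with 5-azacytidine in the MG cells and at least 2.49-fold higher in the non-MG cells.

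With 5-azacytidine, the cell types differed little by the retained CRABP1 probe (log2 ratio of the MG to the non-MG cells -0.14, spot error 0.28, and 0.12 with median centring), and the other probe was 1.59-fold higher in the MG cells (0.67, spot error 0.24). No difference of the responses in MG and non-MG cells is given here, since the level in the vehicle-treated MG cells was not well above background. With normexp correction, the response of the retained probe in the non-MG cells was 0.31 in place of 0.75, within 1.5-fold.

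CRABP2, which carries retinoic acid to its receptors, had a bright probe with intensities of 1581, 1426, 1903 and 2216 in the vehicle-treated non-MG cells, the drug-treated non-MG cells, the vehicle-treated MG cells and the drug-treated MG cells. Its scaled level was highest in the drug-treated MG cells (4.52), and the other arrays lay from 4.18 to 4.27, neighbours in that order being apart by less than the spot error. The log2 ratio of the MG to the non-MG cells was 0.09 with vehicle and 0.28 with 5-azacytidine, and treated over untreated was 0.25 in the MG cells and 0.06 in the non-MG cells. The last value turned its sign with median centring (-0.04) and normexp correction (-0.06). Another CRABP2 probe was well above background on no array, with intensities from 5.56 to 9.95.

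None of the probes of the receptor RARB and of the retinoic acid responsive genes RARRES1 and RARRES2 was well above background on any array, also with 5-azacytidine. The RARB probes had intensities from 2.81 to 6.90 and from 2.17 to 5.37. RARRES1, a membrane protein induced by retinoids, lay from 2.41 to 2.87. RARRES2, which encodes chemerin, lay from 2.31 to 2.78 on the other arrays and at 8.39 in the drug-treated MG cells, where the lowest intensity well above background was 11.8. No order of the arrays can be read from these values, and a level below the detection limit of an array does not show that a gene was silent.

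Of the 9 members, 4 were measured on all arrays, and counts over them are set beside those over the 15708 genes measured on all 4. In the vehicle-treated MG cells none of the 4 was higher and DHRS2 was lower, compared with 5.68% of all genes higher and 8.24% lower, and nothing is read from this count because it chose DHRS2. With 5-azacytidine none was higher and DHRS2 was lower in the MG cells, beside 5.74% and 7.33% of all genes. Treatment raised DHRS2 past 1.5-fold in the MG cells and lowered none, beside 3.02% and 2.1%. In the non-MG cells it moved none of the 4, beside 1.9% and 1.68%.

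CRABP1 enters when genes dim on some arrays are kept. Over the 18919 genes with a probe that passed the filter on low values, 8.24% were higher and 12.6% lower in the vehicle-treated MG cells, and 8.6% and 12.3% with 5-azacytidine. Treatment gave 7.62% higher and 6.37% lower in the MG cells, and 6.01% and 4.58% in the non-MG cells. The 5 members that passed gave 2 lower (DHRS2 and CRABP1) and 1 lower (DHRS2) in the comparisons of cell types, and 2 higher (both) and 1 higher (CRABP1) in the comparisons of treatment. Centring on the median raised the median ratio over all these genes by 0.20 and 0.26 in the comparisons of cell types and turned the balance of their calls, from 1558 higher and 2387 lower to 2985 and 1449 with vehicle and from 1627 and 2320 to 3947 and 1184 with 5-azacytidine. With normexp correction these were 488 and 340, and 753 and 204.

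**Figure D3:**
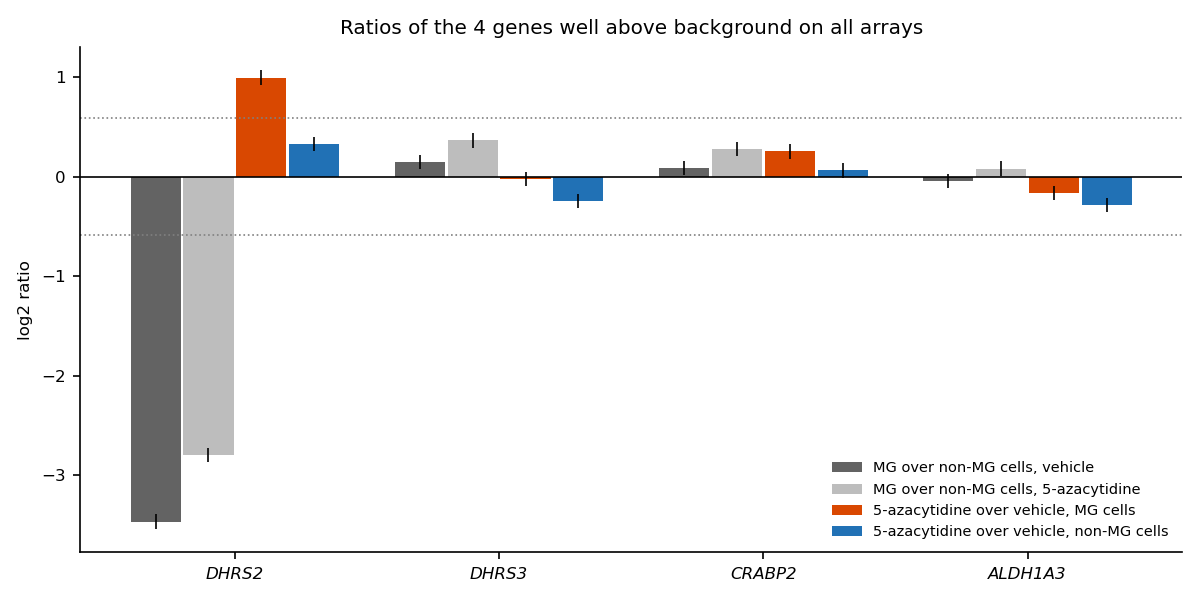
Log2 ratios in the 4 comparisons for DHRS2, DHRS3, CRABP2 and ALDH1A3, with the spot error as bars and dotted lines at 1.5-fold. Only DHRS2 passes 1.5-fold, at -3.47, -2.80 and 0.996.

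The wider pathway was read from 74 other genes, listed as retinoid uptake and carriage, retinoid enzymes, receptors and cofactors, retinoic acid responsive genes, and the DHRS family. A probe was found for 73 of them, 49 were well above background on all arrays and 20 on none. In the vehicle-treated MG cells, 5 of the 49 were higher (IGFBP3, NRIP1, PLAAT4, STRA6 and TGM2) and 3 lower (AKR1C3, NR2F1 and RARA), beside 5.68% and 8.24% of all genes, with a median log2 ratio of 0.05 compared with -0.01 over all genes. With 5-azacytidine, 6 were higher and 4 lower (AKR1C3, NR2F1, PPARD and RARA), beside 5.74% and 7.33% of all genes, with a median of 0.12 (all genes 0.02). The PPARD call rests on a dim probe at -1.15, while its bright probe gave -0.05. With normexp correction (-0.18) and median centring (-0.34) the PPARD mean was within 1.5-fold. Treatment gave 7 higher and 1 lower (NR2F1) in the MG cells, beside 3.02% and 2.1% of all genes, with a median of 0.11 (all genes -0.02). In the non-MG cells it gave 4 higher (CYP26A1, DHRSX, IGFBP3 and STRA6) and 1 lower (DHRS12), beside 1.9% and 1.68% of all genes, with a median of -0.02 (all genes -0.04). The split of the calls for cell types moved with the scaling. With median centring it was 8 to 3 with vehicle and 14 to 2 with 5-azacytidine, and with normexp correction 3 to 3 and 5 to 3. For the drug it was 4 to 1 with normexp correction in the MG cells, and 4 to 2 with median centring and 3 to 0 with normexp correction in the non-MG cells.

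The counts by role that follow are read against the same shares of all genes, 5.68% higher and 8.24% lower in vehicle-treated MG cells, 5.74% and 7.33% in drug-treated MG cells, each against their non-MG counterparts, and 3.02% higher with the drug in the MG cells. Of the lists, 8 uptake and carriage genes were measured, and STRA6 was the only gene among them past 1.5-fold in any comparison. Of 10 enzymes, AKR1C3 was lower in the vehicle-treated MG cells and none higher, although CYP26A1 (0.62), RDH10 (0.65) and AKR1B10 (0.74) were with median centring and AKR1B10 (0.63) with quantile normalization. In addition, AKR1B10 and CYP26A1 were higher with 5-azacytidine in the MG cells. Of 12 receptors and cofactors, NR2F1 and RARA were lower in vehicle-treated MG cells, and none was higher. With 5-azacytidine none was higher either, but NR2F2 (0.55) passed 1.5-fold with normexp correction (0.74) and median centring (0.81). The median ratio of these 12 was -0.42 with vehicle and -0.34 with 5-azacytidine. Of 11 retinoic acid responsive genes, 4 were higher in the vehicle-treated MG cells and none lower (median 0.27). Of 9 DHRS genes other than the members, none passed 1.5-fold between the cell types, but with median centring DHRSX (0.63) and DHRS12 (0.67) did so after 5-azacytidine.

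The genes named next were those of the 49 with the largest ratio in any comparison. CYP26A1, which breaks down retinoic acid, had intensities of 26.4 and 40.1 with vehicle in the non-MG and MG cells and of 68.9 and 114 with 5-azacytidine. Both treated arrays lay above both untreated ones, with log2 ratios of 1.54 in the MG cells (spot error 0.16) and 1.60 in the non-MG cells (spot error 0.22). With normexp correction these ratios were 0.72 and 0.64. Of the 24 genes with the paired element shown above, 7 were measured on all arrays, and CYP26A1 was the only gene of these past 1.5-fold with 5-azacytidine in the MG cells. In the non-MG cells CYP26A1 and PHF8 (0.65) were higher. Of all genes, 3.02% and 1.9% were higher with the drug in the MG and non-MG cells.

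STRA6, the cell-surface receptor that takes up retinol, was higher both in the MG cells and with 5-azacytidine. Its intensity was 34.5 and 79.4 in the non-MG cells without and with the drug, and 101 and 197 in the MG cells. The log2 ratio of the MG to the non-MG cells was 1.37 with vehicle and 0.95 with 5-azacytidine, and treated over untreated was 0.99 in the MG cells and 1.41 in the non-MG cells. With normexp correction these were 0.68, 0.60, 0.62 and 0.70 in the same order. Another STRA6 probe was well above background in the drug-treated MG cells alone. DHRSX, a relative of DHRS2, was 2-fold higher with 5-azacytidine in the MG cells and 1.94-fold higher in the non-MG cells (log2 ratio 0.95), and its log2 ratios between cell types were 0.33 and 0.38. With normexp correction its log2 ratios for the drug were 0.68 and 0.59. Another DHRSX probe was well above background in the drug-treated non-MG cells alone, where it was at least 1.66-fold higher than with vehicle and at least 1.56-fold higher than in the drug-treated MG cells.

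The receptors moved in different directions. RARA, the retinoic acid receptor alpha, was lower in the MG cells by both probes with vehicle (-1.17 and -1.54), and its mean ratio with 5-azacytidine was -0.64, where the probes gave -0.17 and -1.10. With median centring that mean was -0.38 and within 1.5-fold, and with normexp correction it was -0.59. NR2F1, an orphan receptor that competes for the elements of retinoid receptors, had intensities of 5714 and 4138 in the non-MG cells without and with 5-azacytidine, and of 3662 and 1753 in the MG cells. Its log2 ratio of the MG to the non-MG cells was -0.82 with vehicle and -1.60 with 5-azacytidine, and treated over untreated was -1.03 in the MG cells and -0.25 in the non-MG cells. Its relative NR2F2 moved the other way with the drug, with intensities of 611 and 1638 in the MG cells without and with it (log2 ratio 1.46) and of 777 and 871 in the non-MG cells (0.38). Its log2 ratio of the MG to the non-MG cells was -0.53 with vehicle.

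Of the retinoic acid responsive genes, NRIP1, a corepressor of nuclear receptors, was higher in the MG cells by both probes (2.44 and 1.52 with vehicle, 2.33 and 1.82 with 5-azacytidine) and within 1.5-fold between treated and untreated cells. Its mean ratios between cell types, 1.98 and 2.07, were 0.84 and 0.74 with normexp correction. TGM2, a transglutaminase, was higher in the MG cells with mean ratios of 1.16 with vehicle and 1.26 with 5-azacytidine. Its probes disagreed on the drug, since 1 gave 1.12 in the MG cells and 1.09 in the non-MG cells and the other 0.20 and 0.04. With normexp correction its mean ratio for the drug in the MG cells was 0.45, within 1.5-fold. IGFBP3, a binding protein of insulin-like growth factors, passed 1.5-fold in all 4 comparisons (ratios from 0.65 to 0.94), and with normexp correction in none (0.18 to 0.40). PLAAT4, a phospholipase induced by retinoids, was higher in the MG cells with vehicle (0.72), and with normexp correction this was 0.16.

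Among the enzymes, AKR1C3, a reductase of steroids and retinal, was lower in the MG cells at -1.48 with vehicle and -1.43 with 5-azacytidine, with intensities of 114 and 76.7 in the non-MG cells and 46.3 and 36.6 in the MG cells. With normexp correction the AKR1C3 ratios were -0.83 and -0.69. AKR1B10, a retinal reductase, was dim, with intensities of at most 37.1. Its ratio of the MG to the non-MG cells was 0.54 with vehicle and 1.33 with 5-azacytidine, and with normexp correction these were -0.01 and 0.18. Its ratio for the drug in the MG cells, 0.89, was 0.30 with normexp correction. The calls for AKR1B10 by this probe, which was well above background on all arrays, thus rest on the background correction. Another AKR1B10 probe was well above background on both MG arrays (18.77 without and 27.15 with the drug) and on neither non-MG array. By that probe, AKR1B10 was higher in the MG cells, by at least 1.65-fold without the drug and at least 2.13-fold with it. Its ratio for the drug in the MG cells was 0.57, within 1.5-fold.

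**Figure D4:**
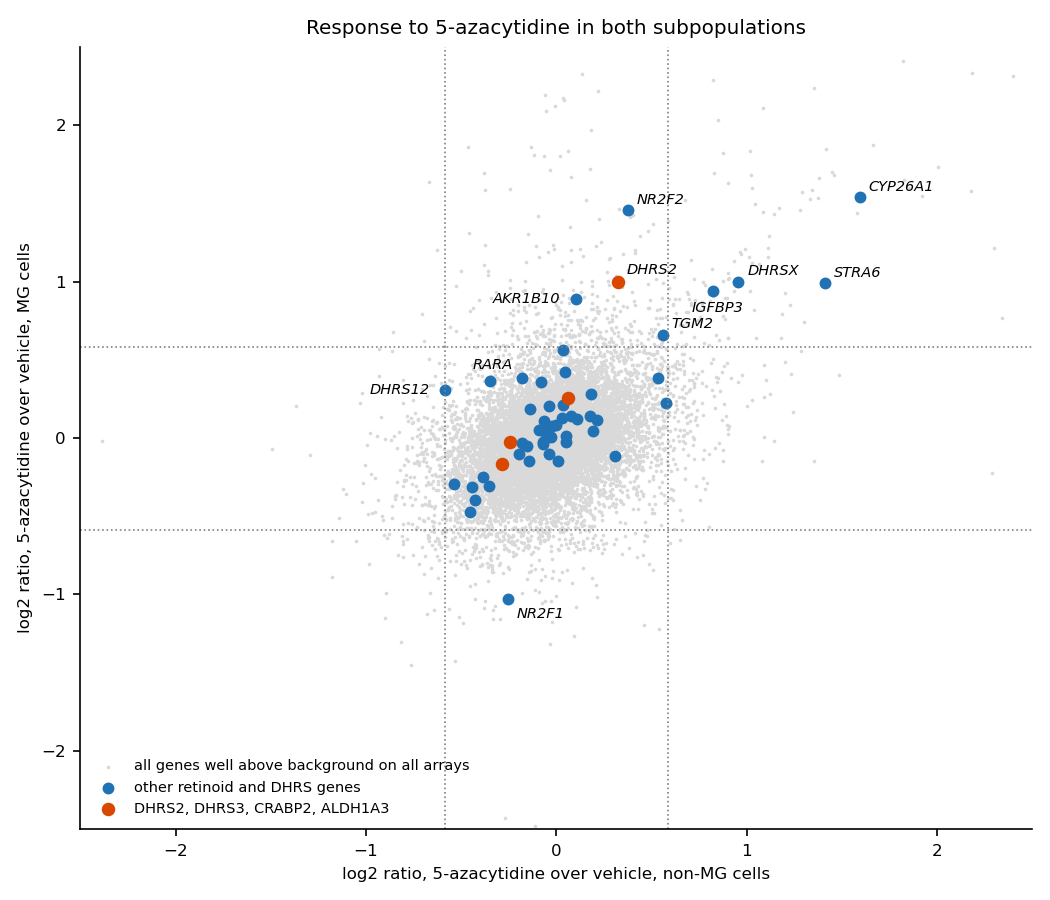
Log2 ratio of 5-azacytidine over vehicle in the non-MG cells (horizontal axis) and in the MG cells (vertical axis) for the 15708 genes that every array measured well above background, of which 17 lie outside the axes. Orange points are DHRS2, DHRS3, CRABP2 and ALDH1A3, blue points are 49 other retinoid and DHRS genes, and dotted lines mark 1.5-fold. CYP26A1 (1.60, 1.54), STRA6 (1.41, 0.99), IGFBP3 (0.82, 0.94) and DHRSX lie past 1.5-fold on both axes, and DHRS2 (0.32, 0.996) on the vertical axis alone.

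The labelled cell line was checked with markers. Of 11 markers of colorectal epithelium, 10 were well above background on all arrays and VIL1 was so on none, and their summed level was 1456 to 1648 times the 75th percentile. CDH1 (-0.66), CLDN3 (-0.85), CLDN4 (-0.73) and ELF3 (-1.09) were lower in the vehicle-treated MG cells and none was higher, beside 8.24% and 5.68% of all genes. Median centring raised the median ratio of this comparison by 0.20, and such a rise takes CDH1 and CLDN4 within 1.5-fold. The paper reports CDH1 as unchanged in the MG cells, by array and by qPCR. Of 7 fibroblast markers 6, and of 5 endothelial markers 4, were well above background on no array. The fibroblast list summed to 0.802 to 1.29 times the 75th percentile, and its COL1A1 was lower in the vehicle-treated MG cells (-0.92). The endothelial list summed to 0.447 to 0.665 times, and its VWF, well above background on all arrays, was higher with 5-azacytidine in the MG cells (0.70), as CRABP1 was. The part of these markers in the results was not tested.

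Part of the leukocyte list was higher with 5-azacytidine in the MG cells, as CRABP1 was. Of its 7 genes 6 had a probe, and the defining PTPRC and CD3E were well above background on no array. CD14, CD68 and TYROBP were dim on all arrays and higher with 5-azacytidine in the MG cells. In the non-MG cells CD14 (0.87) passed 1.5-fold with the drug, and CD68 (0.30) and TYROBP (0.39) did not. The summed level of its 10 probes was 1.59 and 2.07 times the 75th percentile in the non-MG cells without and with the drug, and 1.25 and 2.35 times in the MG cells. CD14 was also among the 5 genes with the pattern most like that of the retained CRABP1 probe over the 4 arrays, with a root mean square difference of 0.14 on the log2 scale. The others were KRT42P (0.09), ESPNL (0.12), ADAM8 (0.13) and a long non-coding transcript without a symbol (0.14). These differences lie below the spot error of 0.20 or more that CRABP1 has at this intensity, and 1 of the 4 CRABP1 levels compared, that of the vehicle-treated MG cells, was not well above background, so the order among them is not resolved. The part of the leukocyte markers in the CRABP1 values was not tested.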

How the data were processed

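RNA of MG and non-MG cells with and without 5-azacytidine was measured on 4 Agilent arrays, 1 per condition, grouped by the sample titles. The RNA reagent is RNAiso Plus in the labels and an RNeasy kit in the methods. The authors deposited Agilent Feature Extraction 11.5.1.1 output, in which each spot has a background-corrected intensity that is not normalized between arrays, and a table of log2 values. In that table, differences between arrays matched those computed here within 0.01, apart from a constant, for 100% of 24161 probes, so that scale and direction are settled. Its column medians were 0.01, -0.01, 0.01 and -0.01.

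Here log2 intensity minus the 75th percentile of the array was used, spots of a probe were averaged, and control spots and outliers were left out (5 of 50599 probes). Counts leave out probes that never rose well above background or that lay in the lowest 20th percentile of at least 2 arrays, and average the remaining probes of each gene. Probes were named by accession through RefSeq (GRCh38.p14), which named 79.4% of the 23860 retained probes. The array design refers to hg19, so no probe coordinates are given. Genes named were all members, the 10 pathway genes well above background on all arrays with the largest ratio, and the 5 nearest in pattern to DHRS2 and CRABP1. Other names (PHF8, the chromosome neighbours, genes counted by list, markers) were added to these. The members and lists were chosen with earlier results of these data known. Alternatives were normexp with an offset of 50 (on the median spot signal), quantile normalization, median centring, a floor at the detection limit, the authors' values, the brightest probe, other filters and a 2-fold threshold. Counts over genes well above background on all arrays and each CRABP1 probe alone were added after seeing the data. With 4 arrays the precision of every ratio is limited. The counting was tested on simulated data. The tools were limma 3.58.1 in R 4.3.3 and, in Python 3.11.15, pandas 2.3.3, numpy 2.4.6 and matplotlib 3.10.9.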

Additional observations from a re-analysis of the deposited data

Results flagged for a closer look

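DHRS12, a relative of DHRS2, has a probe that moved in opposite directions with 5-azacytidine, by 0.75 on the log2 scale in the MG cells and by -0.84 in the non-MG cells (spot error 0.24 for each). Its intensities were 33.6 and 16.2 in the non-MG cells without and with the drug, and 22.7 and 37.2 in the MG cells. The other DHRS12 probe had ratios of -0.13 in the MG cells and -0.33 in the non-MG cells. The mean ratio of the DHRS12 probes for the drug was 0.31 in the MG cells and -0.59 in the non-MG cells. With normexp correction these means were 0.097 and -0.15, within 1.5-fold. The contrast between cell types was not tested, since each condition has 1 array.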

How the results depend on the processing

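The direction of every DHRS2 ratio was the same under each alternative run for it. For the cell types with vehicle and with 5-azacytidine and for the drug in the MG and non-MG cells, normexp correction gave -3.26, -2.60, 0.90 and 0.24, and median centring moved 3 of these past their spot error, to -3.27, -2.54 and 0.23. For CRABP1, normexp correction gave -0.15 for the cell types with vehicle, 0.35 and 0.31 for the drug in the MG and non-MG cells, and 0.036 for the difference of these. The values of the retained CRABP1 probe that use the vehicle-treated MG cells rest on a level not well above background. The other CRABP1 probe alone gave -0.078 with vehicle, where neither array was well above background, 0.67 with 5-azacytidine, where the retained probe was at -0.14, and 4.13 and 3.39 for the drug, which are no bounds.

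Counts of genes past 1.5-fold depended on the processing. For the cell types with vehicle, 1558 genes were higher and 2387 lower, compared with 488 and 340 with normexp correction, 2985 and 1449 with median centring, 3425 and 6436 with no filter, 892 and 1295 over genes well above background on all arrays, and 553 and 815 at 2-fold. With 5-azacytidine, 1627 were higher and 2320 lower, compared with 753 and 204, 3947 and 1184, 3303 and 6608, 902 and 1151, and 612 and 807 in the same order. For the drug in the MG cells, 1442 were higher and 1206 lower, compared with 245 and 76 with normexp correction, 4180 and 3727 with no filter, 474 and 330 over genes well above background on all arrays, and 805 and 511 at 2-fold. In the non-MG cells, 1137 were higher and 867 lower, compared with 100 and 77, 4502 and 3426, 298 and 264, and 560 and 268 in the same order, and median centring turned the balance to 933 and 1272. The cause of these shifts was not tested. No paired analysis was possible because each condition has 1 array and the labels carry no replicate numbers. Signals near background limit CRABP1, RARB, RARRES1, RARRES2 and ALDH1A2.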
